A study of Mus musculus with 12 samples.

Results

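The retina sends its output to the brain through ganglion cells, and 10 genes that mark subtypes of these cells were followed through SHAM, MOG, GB20 and GV16 retinas. The genes were chosen by name as known subtype markers, not by their values in these libraries, although earlier results of the data were known when they were listed. They are 10 of the 54532 gene identifiers in the count table and 10 of the 18299 genes tested, since all 10 passed the filter on low counts. Opn4, Eomes and Adcyap1 mark the intrinsically photosensitive ganglion cells. Spp1 and Kcng4 mark alpha ganglion cells. Igf1 belongs to the genes tied to the resilience of M1 and alpha cells after axon injury. Cartpt, Mmp17 and Fstl4 mark direction-selective cells, and Jam2 marks J cells.

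As background, ganglion cell subtypes differ in what they report to the brain. Intrinsically photosensitive cells contain melanopsin, respond to light without rods or cones, and set the circadian clock and the pupil. Alpha cells have large somata and fast, thick axons, direction-selective cells fire to motion along a preferred axis, and J cells carry dendrites that point ventrally. After optic nerve crush, alpha cells and the M1 class of photosensitive cells are known to survive better than most subtypes, and many direction-selective cells are known to survive poorly.

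All libraries were made from retinas of wild-type C57BL/6 mice aged 13 weeks, with 3 libraries in each group. SHAM mice were labelled as the sham control, and what they received in place of the immunization is not given in the sources used here. MOG mice were immunized with the MOG35-55 peptide, a fragment of myelin oligodendrocyte glycoprotein given with complete Freund's adjuvant and pertussis toxin, which induces an autoimmune encephalomyelitis that includes inflammation of the optic nerve. GB20 mice had the same immunization and were needled at GB20, an acupoint at the back of the neck. GV16 mice also had the same immunization and were needled at the control acupoint GV16. The methods describe female mice, retinas taken several weeks after immunization, and needling repeated every few days in the later weeks under xylazine and ketamine, and name no anaesthesia for unneedled mice, so needling and anaesthesia cannot be told apart. The methods name 3 biological replicates, but it is not plainly stated whether 1 library pools several mice. The p-values therefore measure the spread between these libraries, which need not be the spread between single mice.

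Total counts lay between 15860278 and 19194280 per library. The tissue label was checked against rod genes (Gnat1, Sag, Pde6a and Nrl), whose summed level was 18284 to 20942 CPM (the counts of a gene scaled to a fixed library size) in each library. The members were far rarer and together made up 326 to 357 CPM. Because whole retinas were sequenced in bulk, a lower level can mean fewer cells of a subtype or less RNA in each cell. It can also mean less RNA in other cells that express the gene, and the data cannot tell these apart.

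No member passed the adjusted threshold of 0.05 in any of the 6 comparisons. Differences were tested in edgeR with the quasi-likelihood test over all 12 libraries and Benjamini-Hochberg adjustment over the 18299 genes. In MOG vs. SHAM, 0 of 10 members passed, beside 1.34% of all genes. At an unadjusted p under 0.05, 2 members passed (Eomes and Adcyap1), beside 13.0% of all genes. In GB20 vs. MOG, 0 of 10 members passed, beside 0.24% of all genes, and 1 (Fstl4) had an unadjusted p under 0.05, beside 8.0%. In GV16 vs. MOG, 0 of 10 passed, beside 0.164%, and 1 (Spp1) had an unadjusted p under 0.05, beside 5.3%. In GB20 vs. GV16, 0 of 10 passed, beside 0.00546%, and 1 (Fstl4) had an unadjusted p under 0.05, beside 2.93%. In GB20 vs. SHAM, 0 of 10 passed, beside 0.344%, and 3 (Fstl4, Opn4 and Spp1) had an unadjusted p under 0.05, beside 9.06%. In GV16 vs. SHAM, 0 of 10 passed, beside 0.656%, and 3 (Cartpt, Opn4 and Spp1) had an unadjusted p under 0.05, beside 10.9%. Among the other tools and settings tried, DESeq2 and limma also called no member in any comparison, and edgeR called members only in GV16 vs. SHAM, where the values are given with Cartpt and Spp1.

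**Figure D1:**
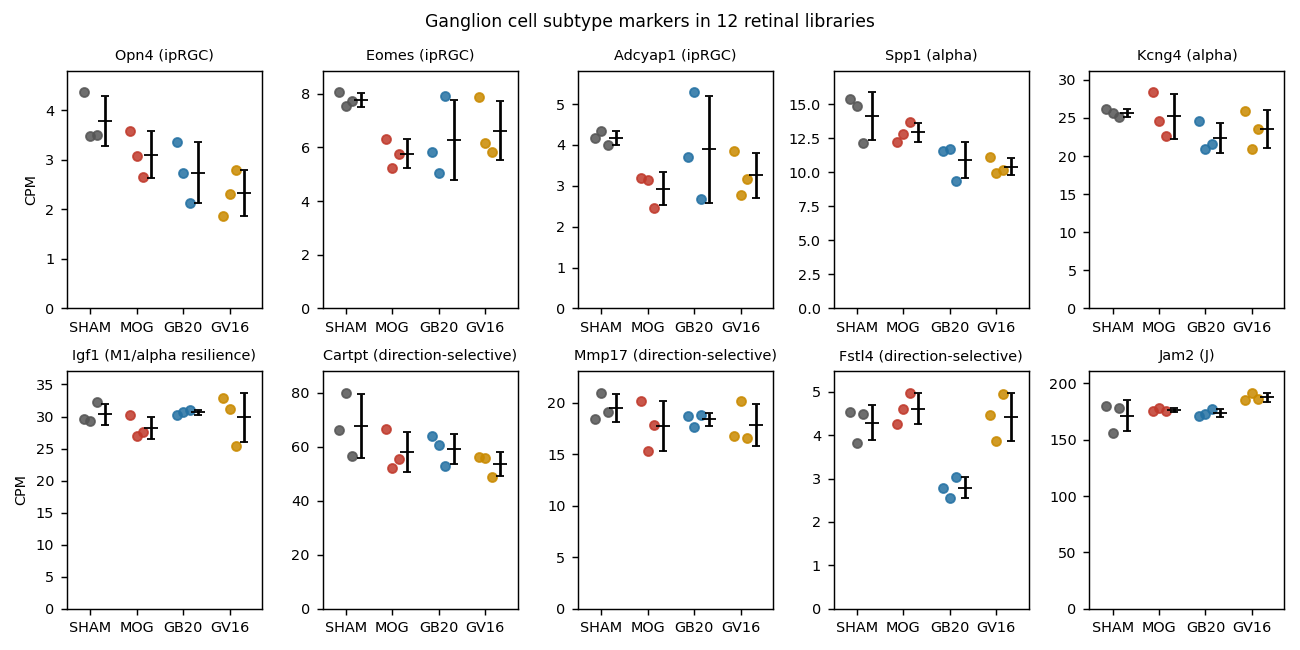
CPM of each member in each of the 12 libraries, 1 panel per gene with its own linear axis from 0, coloured points for libraries and black marks for the group mean with its SD. The GB20 points of Fstl4 (2.55 to 3.05 CPM) lie below the other 9 libraries, and the GV16 points of Jam2 lie above the other 9. All needled points of Spp1 lie below all its points without needling. Only Mmp17 overlaps in every pair of groups.

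Opn4 encodes melanopsin, the photopigment that defines the intrinsically photosensitive cells. The gene (ENSMUSG00000021799) is at chr14:34590618-34600142 on the minus strand of GRCm38. Its level was 4.36, 3.47 and 3.50 CPM in SHAM 1 to 3, and 3.58, 3.07 and 2.64 CPM in MOG 1 to 3. GB20 1 to 3 had 3.35, 2.74 and 2.13 CPM, and GV16 1 to 3 had 1.86, 2.31 and 2.79 CPM. SHAM and MOG overlapped, whereas every GB20 and every GV16 library was below every SHAM library. The group means stood at 82.1% of SHAM in MOG, 72.6% in GB20 and 61.5% in GV16. GV16 vs. SHAM gave a log2 fold change of -0.70 (SE 0.224, 95% interval -1.16 to -0.23, edgeR adjusted p = 0.194). In MOG vs. SHAM it was -0.28 (95% interval -0.72 to 0.16), and in GV16 vs. MOG it was -0.42 (95% interval -0.89 to 0.06), so neither step of that distance was resolved alone. Opn4 rested on 30 to 72 counts per library, and counting error alone was 11.8% to 18.3% of a value.

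Eomes encodes a T-box transcription factor, also called Tbr2, that is needed to form and maintain the melanopsin cells. The gene (ENSMUSG00000032446) is at chr9:118478212-118486132 on the plus strand. Its level was 8.05, 7.53 and 7.71 CPM in SHAM 1 to 3, and 6.32, 5.22 and 5.76 CPM in MOG 1 to 3. The needled libraries had 5.82, 5.05 and 7.92 CPM in GB20 1 to 3 and 7.89, 6.17 and 5.82 CPM in GV16 1 to 3. All MOG libraries were below all SHAM libraries, while 1 library of each needled group (GB20 3 and GV16 1) was inside the SHAM range. The log2 fold change in MOG vs. SHAM was -0.43 (SE 0.166, 95% interval -0.77 to -0.08, edgeR adjusted p = 0.267). GB20 vs. MOG gave 0.11 (95% interval -0.24 to 0.46) and GV16 vs. MOG gave 0.20 (95% interval -0.15 to 0.55). Eomes is also a gene of natural killer and memory T cells. Of 9 genes listed for those cells, 0 passed the filter on low counts, Ncr1 was at 0 in all libraries, and their summed level was 0.303 to 0.721 CPM in SHAM, 0.336 to 1.20 in MOG, 0.244 to 1.28 in GB20 and 0.579 to 1.55 in GV16.

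Adcyap1 encodes PACAP, the neuropeptide that photosensitive cells release onto the suprachiasmatic nucleus. The gene (ENSMUSG00000024256) is at chr17:93199017-93206537 on the plus strand. Its level was 4.18, 4.35 and 3.99 CPM in SHAM 1 to 3, and 3.19, 3.13 and 2.46 CPM in MOG 1 to 3. With needling it was 3.71, 5.29 and 2.68 CPM in GB20 1 to 3 and 3.85, 2.76 and 3.16 CPM in GV16 1 to 3. The SHAM libraries sat close together and above all MOG and all GV16 libraries, and the GB20 libraries held both the highest of the 12 values and 1 of the lowest 3. MOG vs. SHAM gave a log2 fold change of -0.51 (SE 0.221, 95% interval -0.97 to -0.05, edgeR adjusted p = 0.321), the widest step of any member in that comparison. GB20 vs. MOG gave 0.41 (95% interval -0.05 to 0.87), which went down to 0.13 without GB20 replicate 2. The level rested on 41 to 87 counts per library, and counting error alone was 10.7% to 15.6% of a value. The SHAM libraries thus lay closer together (coefficient of variation 4.27%) than counting error alone would place them.

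Among the photosensitive markers, MOG vs. SHAM thus separated the libraries of Eomes and Adcyap1 but not those of Opn4, and no log2 fold change passed the adjusted test. Across all 10 members, the libraries of MOG and SHAM did not overlap for 2, beside 16.2% of all genes tested. Both were lower in MOG, as were 8.34% of all genes.

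Of 9 further genes of the photosensitive class, mostly of melanopsin signalling, 1 changed in MOG vs. SHAM and 0 changed in the other 5 comparisons. That gene was Gna14, a G protein alpha subunit of the Gq family, which rose from 3.27 CPM ± 0.938 (SD, n = 3) to 5.52 ± 0.136 (SD, n = 3), a log2 fold change of 0.75 (SE 0.190, edgeR adjusted p = 0.0496). The median log2 fold change of the 9 genes in MOG vs. SHAM was 0.04, beside -0.0023 for all genes. Their summed level in SHAM was 298 to 346 CPM, with means of 126 CPM for Plcb4, 75.8 for Gnaq and 74.8 for Gna11. These genes need not be limited to photosensitive cells, and which cells their RNA came from was not tested.

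Spp1 encodes osteopontin, a secreted glycoprotein that marks alpha cells in the retina. The gene (ENSMUSG00000029304) is at chr5:104435118-104441050 on the plus strand, and 18.8% of its exonic bases also lie in the same-strand model Gm42793. Whether reads there were counted for Spp1, for Gm42793 or for neither is not known. Its level was 15.4, 14.9 and 12.2 CPM in SHAM 1 to 3, and 12.3, 12.8 and 13.7 CPM in MOG 1 to 3. After needling, GB20 1 to 3 had 11.5, 11.7 and 9.38 CPM and GV16 1 to 3 had 11.1, 9.97 and 10.2 CPM. SHAM and MOG overlapped, and all 6 needled libraries were below all 6 libraries without needling. This division of the libraries was chosen after the values were seen, and 0.579% of all genes tested were separated by it in either direction. MOG vs. SHAM gave a log2 fold change of -0.13 (95% interval -0.38 to 0.12). GB20 vs. MOG gave -0.25 (SE 0.124, 95% interval -0.50 to 0.01, edgeR adjusted p = 0.636), and GV16 vs. MOG gave -0.31 (SE 0.126, 95% interval -0.57 to -0.05, edgeR adjusted p = 0.841). Both comparisons use the same 3 MOG libraries. Against SHAM, GV16 gave -0.44 (SE 0.125, 95% interval -0.70 to -0.18, edgeR adjusted p = 0.126), and without SHAM replicate 3, the lowest SHAM library, this was -0.54 (edgeR adjusted p = 0.0408).

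Kcng4 encodes Kv6.4, a silent potassium channel subunit that modifies other potassium channels and is used to label alpha cells genetically. The gene (ENSMUSG00000045246) is at chr8:119623854-119635680 on the minus strand. Its level was 26.2, 25.7 and 25.1 CPM in SHAM 1 to 3, and 28.4, 24.6 and 22.6 CPM in MOG 1 to 3. GB20 1 to 3 had 24.6, 21.0 and 21.6 CPM, and GV16 1 to 3 had 26.0, 21.0 and 23.6 CPM. The MOG libraries lay on both sides of the SHAM range, and only GB20 was wholly below SHAM. In MOG vs. SHAM the log2 fold change was -0.03 (SE 0.102), and its 95% interval ran from 15.1% below to 13.8% above SHAM. GB20 vs. SHAM gave -0.20 (95% interval -0.41 to 0.02, edgeR adjusted p = 0.61). How much of the Kcng4 signal came from alpha cells or from any other cell was not tested.

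Of 4 other genes of alpha cells listed (Nefh, Tpbg, Kcnip2 and Fes), 1 passed in MOG vs. SHAM, the same number in GB20 vs. SHAM and in GV16 vs. SHAM, and 0 among needled and MOG retinas. The gene was Nefh in each case, the neurofilament heavy chain of thick axons, which is abundant in alpha cells but not limited to them. Nefh fell from 97.5 CPM ± 8.74 (SD, n = 3) in SHAM to 53.0 ± 6.78 (SD, n = 3) in MOG, a log2 fold change of -0.88 (edgeR adjusted p = 0.000366). In GB20 it stood at 57.3 CPM ± 4.38 (SD, n = 3) and in GV16 at 55.9 ± 9.97 (SD, n = 3). Kcnip2, a potassium channel interacting protein, gave -0.56 in MOG vs. SHAM (edgeR adjusted p = 0.0528), just outside the threshold, and was picked after its value was seen. The list's median log2 fold change was -0.44, beside -0.0023 for all genes.

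Igf1 encodes insulin-like growth factor 1, a survival factor for neurons. The gene (ENSMUSG00000020053) is at chr10:87858265-87937042 on the plus strand. Its level was 29.7, 29.2 and 32.2 CPM in SHAM 1 to 3, and 30.2, 27.0 and 27.6 CPM in MOG 1 to 3. The needled libraries had 30.3, 30.6 and 30.9 CPM in GB20 1 to 3 and 32.8, 31.2 and 25.5 CPM in GV16 1 to 3. The GB20 libraries were nearly identical and just above every MOG library, and GV16 spanned the full range of the others. Log2 fold changes were -0.10 in MOG vs. SHAM (95% interval -0.30 to 0.09) and 0.12 in GB20 vs. MOG (SE 0.0935, 95% interval -0.08 to 0.31, edgeR adjusted p = 0.775). In percent, the interval for MOG vs. SHAM ran from 18.7% below to 6.4% above.

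Spp1 and Igf1 are also made by microglia and macrophages. Of 15 microglial genes, 2 rose in MOG vs. SHAM (Csf1r and C1qa), 1 rose in GV16 vs. SHAM (Csf1r), and 0 passed in the other 4 comparisons. The summed level of the 15 was 46.8 to 54.6 CPM in SHAM, 66.2 to 75.1 in MOG, 62.5 to 77.9 in GB20 and 67.5 to 77.1 in GV16. It was thus higher in every immunized library than in every SHAM library, while the mean levels of Spp1 and Igf1 in MOG were not above those in SHAM. The part of microglia in the levels of Spp1 and Igf1 was not tested.

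Genes whose products bind the members were read as a list of 19, and 1 of them passed. Cd44, a receptor for hyaluronan and osteopontin, rose from 7.97 CPM ± 0.348 (SD, n = 3) in SHAM to 13.6 ± 1.34 (SD, n = 3) in MOG, and its log2 fold change was 0.77 (SE 0.136, edgeR adjusted p = 0.00289). In GB20 vs. SHAM it also rose, with a log2 fold change of 0.64 (edgeR adjusted p = 0.0421). In GV16 it stood at 9.12 CPM ± 1.38 (SD, n = 3), and GV16 vs. MOG gave -0.57 (edgeR adjusted p = 0.138). The next 2 were chosen after their values were seen. Igfbp4, which binds IGF1, gave -0.35 in MOG vs. SHAM (edgeR adjusted p = 0.0683). The Igf1 receptor Igf1r gave 0.21 (edgeR adjusted p = 0.239). The list's median in MOG vs. SHAM was 0.02.

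The direction-selective markers include the member with the widest separation of GB20 from the other groups, Fstl4, and the one highest per gene length, Cartpt. Their promoters are shown because they are the members' windows that hold the full cyclic AMP response element TGACGTCA, which was searched since PACAP and light act on retinal neurons partly through cyclic AMP and CREB. RefSeq (GRCm38.p6) gave windows from 250 bases before to 50 after the start of transcription for 8 of the 10 members, in 10 windows. Capitals mark the element, and both sequences read 5′ to 3′ on the gene's strand. The Fstl4 window is chr11:52764456-52764755 on the plus strand, and the element lies 77 to 70 bases before the RefSeq start. That start is 72 bases downstream of the start of the GENCODE gene model given with Fstl4, so the element straddles the model's start. The Cartpt window is chr13:99900634-99900933 on the minus strand, and the element lies 112 to 105 bases before the RefSeq start. That start is 408 bases downstream of the 5′ end of the GENCODE gene model given with Cartpt, so the whole window lies inside the model.
Fstl4: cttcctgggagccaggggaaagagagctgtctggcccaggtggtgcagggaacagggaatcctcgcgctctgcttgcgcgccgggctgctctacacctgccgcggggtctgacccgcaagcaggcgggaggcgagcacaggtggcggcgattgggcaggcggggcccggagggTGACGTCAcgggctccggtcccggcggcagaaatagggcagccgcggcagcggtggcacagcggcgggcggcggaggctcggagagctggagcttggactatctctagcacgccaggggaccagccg
Cartpt: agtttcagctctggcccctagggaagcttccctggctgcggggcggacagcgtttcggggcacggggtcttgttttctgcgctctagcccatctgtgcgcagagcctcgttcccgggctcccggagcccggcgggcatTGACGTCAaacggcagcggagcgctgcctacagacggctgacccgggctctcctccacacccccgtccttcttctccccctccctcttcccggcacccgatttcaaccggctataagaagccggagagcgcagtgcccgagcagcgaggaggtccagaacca

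The element occurred in 1.79% of all 32851 promoter windows of that length, on either strand. Its first letters TGACG, which it contains, occurred in 20.8% of windows, and among members in Adcyap1, Cartpt and Fstl4. The T-box letters AGGTGT occurred in 13.7%, and among members in Adcyap1 and Fstl4, whereas the longer GGTGTGA (3.98%) occurred in none. The homeodomain letters TAATTA occurred in 5.29% and the octamer-like letters TTTGCAT in 4.63%, both present in Spp1, and ATGCAT (5.04%) occurred in no member window. The E-box CAGCTG occurred in 16.3%, among members in Igf1 and Kcng4, and the E-box CACGTG (7.15%) in none. Nothing was measured at these promoters, and a match describes the letters only.

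Fstl4 encodes follistatin-like 4, a secreted glycoprotein of the follistatin family, and marks ON-OFF direction-selective cells. The gene (ENSMUSG00000036264) is at chr11:52764634-53188538 on the plus strand. Its level was 4.54, 3.82 and 4.49 CPM in SHAM 1 to 3, and 4.25, 4.61 and 4.98 CPM in MOG 1 to 3. With needling it was 2.78, 2.55 and 3.05 CPM in GB20 1 to 3 and 4.47, 3.86 and 4.95 CPM in GV16 1 to 3. SHAM, MOG and GV16 overlapped closely, and all GB20 libraries were below all 9 others. This division was chosen after the values were seen, and 0.699% of all genes tested were separated by it in either direction. No member set all 3 SHAM libraries (3.23% of all genes) or all 3 MOG libraries (2.14%) apart from the other 9. The mean of GB20 was 2.79 CPM ± 0.246 (SD, n = 3) and that of MOG 4.62 ± 0.365 (SD, n = 3). GB20 vs. MOG gave a log2 fold change of -0.72 (SE 0.178, 95% interval -1.09 to -0.35, edgeR adjusted p = 0.137), the largest of any member in any comparison. GB20 vs. GV16 gave -0.66 (SE 0.180, 95% interval -1.04 to -0.29, edgeR adjusted p = 1.0), and GB20 vs. SHAM gave -0.62 (SE 0.179, 95% interval -0.99 to -0.25, edgeR adjusted p = 0.163). These 3 comparisons share the GB20 libraries. MOG vs. SHAM gave 0.11 (95% interval -0.25 to 0.46). The level rested on 42 to 83 counts per library, and over the alternative fits the adjusted p in GB20 vs. MOG ran from 0.0653 to 0.548.

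Across all members, the libraries of GB20 and MOG did not overlap for 3 (Fstl4 and Spp1 lower in GB20, Igf1 higher), beside 15.7% of all genes, 7.71% being lower. For GB20 vs. GV16 there were 2 (Fstl4 and Jam2, both lower in GB20), beside 8.34%, of all genes 4.32% being lower. For GB20 vs. SHAM there were 4 (Fstl4, Kcng4, Opn4 and Spp1, all lower in GB20), beside 12.7%, of all genes 7.09% being lower.

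Cartpt encodes the precursor of the CART neuropeptides and marks ON-OFF direction-selective cells. The gene (ENSMUSG00000021647) is at chr13:99898489-99901091 on the minus strand. Its level was 66.3, 80.2 and 56.5 CPM in SHAM 1 to 3, and 66.7, 52.2 and 55.5 CPM in MOG 1 to 3. After needling, GB20 1 to 3 had 64.1, 60.7 and 53.0 CPM and GV16 1 to 3 had 56.4, 56.1 and 48.7 CPM. SHAM varied most, and its lowest library was only just above the highest GV16 library. GV16 vs. SHAM gave a log2 fold change of -0.33 (SE 0.117, 95% interval -0.58 to -0.09, edgeR adjusted p = 0.272). In edgeR fits of this comparison, the adjusted p was 0.0124 without the filter on low counts and 0.0432 without SHAM replicate 3, where the log2 fold change was -0.45. Without SHAM replicate 2, the highest library, it was -0.19 (adjusted p = 0.614), and over all alternatives the adjusted p ran up to 0.682. MOG vs. SHAM gave -0.22 (95% interval -0.46 to 0.03, edgeR adjusted p = 0.446), and -0.07 without SHAM replicate 2. Cartpt is also present in some amacrine cells, and of 9 amacrine genes 0 passed in any of the 6 edgeR comparisons, with at most 1 at an unadjusted p under 0.05 in a comparison. Their summed level was 662 to 721 CPM in SHAM and 642 to 718 CPM in GV16.

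Mmp17 encodes a membrane-anchored matrix metalloproteinase, MT4-MMP, and also marks direction-selective cells. The gene (ENSMUSG00000029436) is at chr5:129584169-129611099 on the plus strand. Its level was 18.4, 21.0 and 19.1 CPM in SHAM 1 to 3, and 20.1, 15.3 and 17.8 CPM in MOG 1 to 3. GB20 1 to 3 had 18.7, 17.6 and 18.8 CPM, and GV16 1 to 3 had 16.8, 20.2 and 16.6 CPM. Every pair of groups overlapped. The log2 fold change in MOG vs. SHAM was -0.13 (95% interval -0.37 to 0.10), and GB20 vs. MOG gave 0.05 (95% interval -0.18 to 0.28). Side by side, GB20 vs. MOG gave -0.72 for Fstl4, 0.03 for Cartpt and 0.05 for Mmp17, and the differences between these genes were not tested. Of 5 further genes linked to direction-selective cells (Drd4, Satb1, Col25a1, Cdh6 and Trhr), edgeR called 0 in any comparison. Their summed level in SHAM was 231 to 266 CPM, and the SHAM mean of Drd4 was 184 CPM. These genes need not be limited to direction-selective cells, and which cells their RNA came from was not tested. At an unadjusted p under 0.05 there was 1 in MOG vs. SHAM, Col25a1, which gave 0.26 (edgeR adjusted p = 0.305), and at most 1 in each other comparison.

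Jam2 encodes junctional adhesion molecule B and is used to label J cells, which respond to upward motion. The gene (ENSMUSG00000053062) is at chr16:84774123-84825928 on the plus strand. Its level was 180, 156 and 179 CPM in SHAM 1 to 3, and 175, 178 and 176 CPM in MOG 1 to 3. The needled libraries had 171, 173 and 177 CPM in GB20 1 to 3 and 185, 192 and 186 CPM in GV16 1 to 3. The GV16 libraries were above all 9 others, a division chosen after the values were seen, which separated 0.836% of all genes tested in either direction. Log2 fold changes were 0.09 in GV16 vs. MOG (SE 0.0684, 95% interval -0.05 to 0.23, edgeR adjusted p = 0.998) and 0.13 in GV16 vs. SHAM (95% interval -0.01 to 0.27, edgeR adjusted p = 0.505). MOG vs. SHAM gave 0.04, with a 95% interval from 6.71% below to 13.5% above SHAM, the narrowest on the log2 scale of any member. Jam2 is expressed in endothelium as well. Of 10 endothelial genes, edgeR called 0 in each comparison, with 1 to 4 at an unadjusted p under 0.05 in 5 of the 6. Their summed level was 278 to 320 CPM in SHAM, 304 to 323 in MOG, 285 to 300 in GB20 and 262 to 307 in GV16. In GV16 vs. SHAM, 9 of the 10 had a negative sign, beside 51.0% of all genes. The exception was Flt1, with a mean of 83.0 CPM in SHAM and 96.7 in GV16. How much of the Jam2 signal came from J cells, from endothelium or from any other cell was not tested.

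Across all members, GV16 and MOG did not overlap for 2 (Spp1 lower and Jam2 higher in GV16), beside 12.6% of all genes, 6.45% being lower. GV16 and SHAM did not overlap for 5 (Adcyap1, Cartpt, Opn4 and Spp1 lower, Jam2 higher in GV16), beside 14.5% of all genes, 7.6% being lower.

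**Figure D2:**
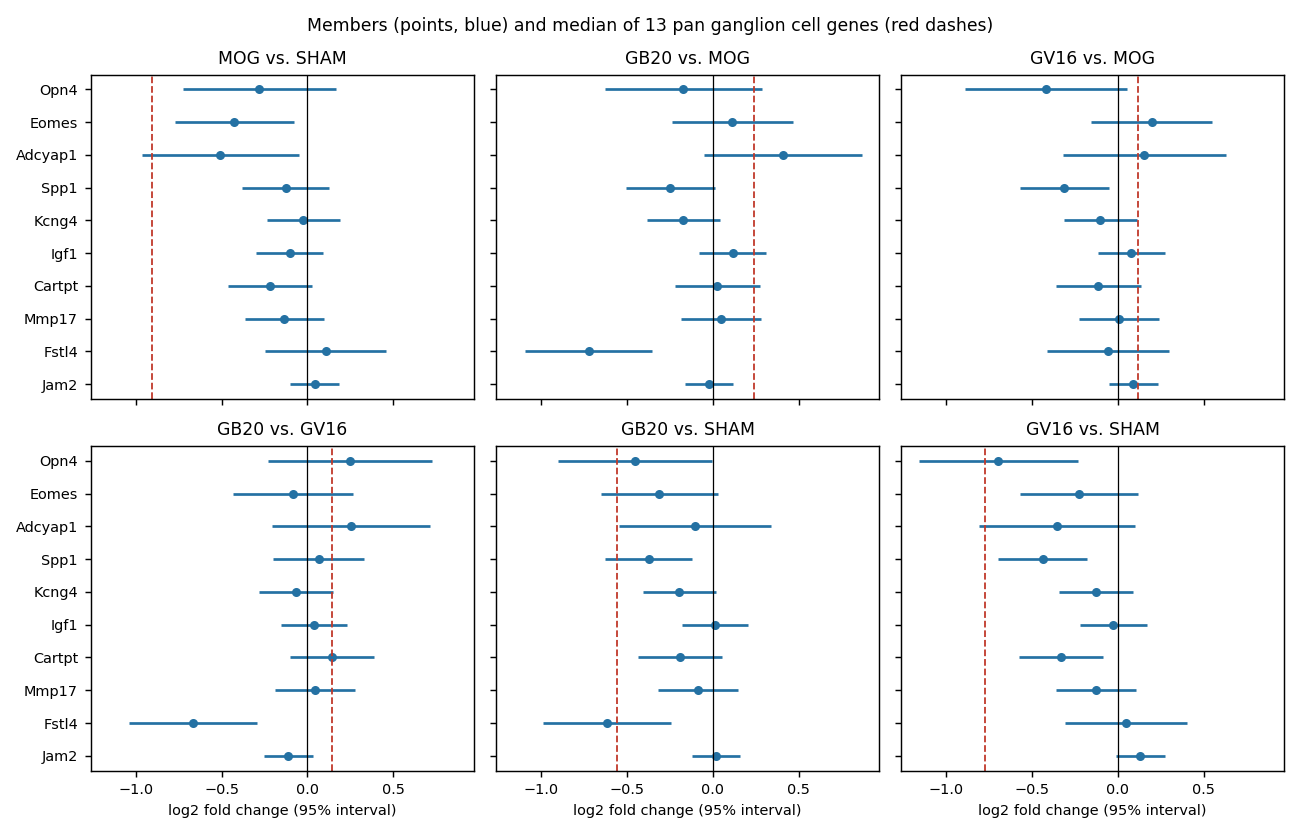
Log2 fold change of each member in the 6 comparisons, with points for the edgeR estimate and bars for its 95% interval, a solid line at 0 and red dashes at the median of the 13 pan-ganglion-cell genes. Most intervals cross 0, and Fstl4 in GB20 vs. MOG (-0.72) and Opn4 in GV16 vs. SHAM (-0.70) lie farthest from it.

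The levels of the members were compared with each other only per gene length, as FPKM (fragments scaled to gene length and to library size). Cartpt was highest with 46.4 FPKM ± 6.63 (SD over all 12 libraries), followed by Jam2 with 29.1 ± 1.49. Spp1 stood at 7.28 FPKM ± 1.12 and Kcng4 at 6.31 ± 0.604. Igf1 (2.98 FPKM ± 0.219) and Mmp17 (2.75 ± 0.249) came next. The rarest were Adcyap1 (1.69 FPKM ± 0.390), Eomes (1.58 ± 0.272), Opn4 (0.999 ± 0.237) and Fstl4 (0.913 ± 0.188). In this order the ranges of neighbours were apart between Cartpt and Jam2, between Jam2 and Spp1, and between Kcng4 and Igf1. The other neighbours overlapped and could not be ordered. For Adcyap1 the authors' FPKM corresponds to a length of about 2088 bases, while its merged GENCODE exons span 3777 bases, on which its level would be 0.936 FPKM ± 0.215. The direction-selective markers included both the gene with the highest level and Fstl4, one of those with the lowest.

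**Figure D3:**
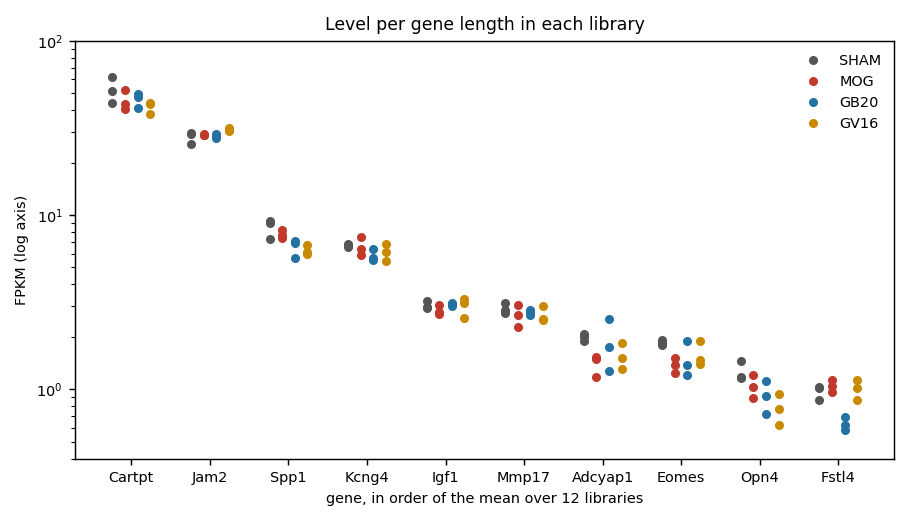
FPKM of the members in each library on a log axis, ordered by the mean over 12 libraries, with points coloured by group. Cartpt (46.4 FPKM on average) and Jam2 (29.1) stand above the other 8 members, and the ranges of most lower neighbours overlap.

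The variation that replicates left after counting error also differed between members. The biological coefficient of variation fitted by edgeR was 6.08% for Jam2, 7.54% for Igf1, 8.16% for Kcng4, 8.61% for Mmp17, 9.04% for Spp1 and 9.92% for Cartpt. It was 10.1% for Fstl4, 11.6% for Eomes, 13.7% for Opn4 and 14.8% for Adcyap1. The photosensitive markers thus had the highest fitted values, and with Fstl4 they were also the members with the lowest CPM. Level and class can therefore not be told apart here. The plain coefficient of variation of CPM in SHAM was 3.43% for Eomes, 4.27% for Adcyap1 and 13.4% for Opn4, beside 17.6% for Cartpt. In GB20 it was 23.7%, 33.8% and 22.2% in that order, beside 9.60% for Cartpt. MOG gave 9.55%, 13.8% and 15.2%, beside 13.0% for Cartpt, and GV16 gave 16.7%, 16.9% and 19.9%, beside 8.12%. Each of these values rests on 3 libraries, and their differences between groups were not tested. The log2 fold change of Opn4 in MOG vs. SHAM (-0.28) ran from -0.40 to -0.17 when 1 library was left out.

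The subtype markers were then set beside 13 genes shared by most ganglion cells, among them the neurofilament gene Nefl, Sncg, Tubb3, Rbpms and the Pou4f factors. It was known from earlier results that those genes were lower after immunization, so their direction is given only as the background for the members. In MOG vs. SHAM, 13 of 13 fell, with a median log2 fold change of -0.90 and a range from -1.14 to -0.48. The members in the same comparison had a median of -0.13 and a range from -0.51 to 0.11, and all genes a median of -0.0023. For 9 of the 10 members the 95% interval lay wholly above the pan-ganglion-cell median, and Adcyap1 was the exception. The same held for 91.4% of all genes tested, so the members' share was near that of all genes and sets nothing apart about them.

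In GB20 vs. SHAM all 13 shared genes had a negative sign and an unadjusted p under 0.05, and every GB20 library was below every SHAM library for all 13. Of these, 4 passed the adjusted threshold in edgeR. Their median was -0.56, and the members' median was -0.19. The interval lay above the shared median for 6 members, beside 80.1% of all genes. In GV16 vs. SHAM the libraries were likewise apart for all 13 and 12 passed the adjusted threshold, with a median of -0.78, and the members' median was -0.18. The interval lay above the shared median for 8 members, beside 86.9% of all genes. Between needled and MOG retinas, edgeR called 0 of the 13. An unadjusted p under 0.05 was reached by 5 in GB20 vs. MOG, beside 8.0% of all genes, and by 0 in GV16 vs. MOG, beside 5.3%. The medians of the 13 were 0.24 and 0.11. The members' medians in those comparisons were 0.0027 and -0.03, and 5 of 10 had a negative sign in each, beside 49.8% and 49.1% of all genes. In GB20 vs. GV16 4 of 10 members were negative, beside 49.7%. In that direct comparison of the needled groups, edgeR called 0 of the 13 shared genes, and their median was 0.14. An unadjusted p under 0.05 was reached by 1 of them, beside 2.93% of all genes, and the libraries overlapped for all 13. In all 3 comparisons with SHAM, which share the SHAM libraries, 8 of 10 members had a negative sign, beside 50.5% of all genes in MOG, 49.7% in GB20 and 51.0% in GV16.

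**Figure D4:**
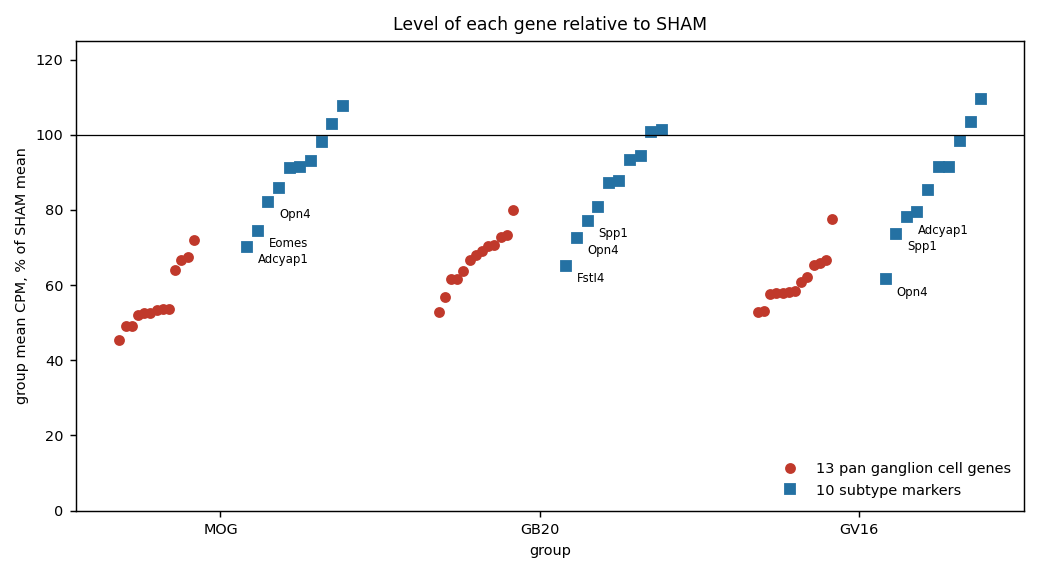
Group mean CPM as a percent of the SHAM mean in MOG, GB20 and GV16, sorted by value, for the 10 members (blue squares, lowest 3 named) and the 13 shared ganglion cell genes (red circles), with a line at 100%. Opn4 stands at 82.1%, 72.6% and 61.5%, Fstl4 at 108%, 65.2% and 103%, and Jam2 and Igf1 stay between 93.0% and 110%, while most shared genes lie below most members.

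Markers of further ganglion cell types gave 1 call. Of 16 such genes, including Foxp2, Foxp1, Tbr1, Zic1 and Penk, Trarg1 fell from 29.7 CPM ± 2.67 (SD, n = 3) in SHAM to 16.2 ± 3.20 (SD, n = 3) in MOG, a log2 fold change of -0.88 (edgeR adjusted p = 0.00395). The list's median in MOG vs. SHAM was -0.25, and 14 of 16 had a negative sign. Tbr1, a relative of Eomes that marks cells with dendrites in the OFF layer, was picked after its value was seen and gave -0.66 (edgeR adjusted p = 0.139). None of the 16 was called by edgeR in the other 5 comparisons, where 0 to 5 had an unadjusted p under 0.05.

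Other cells of the retina were read from further lists. The 6 Muller glial genes gave 1 call, Rlbp1, which fell by 0.36 on the log2 scale in GV16 vs. SHAM. The 5 mural cell genes, the 4 rod genes, the 4 tested of 5 pigment epithelium genes and the 3 tested of 7 oligodendrocyte genes gave 0 edgeR calls, with 0 to 2 of each list at an unadjusted p under 0.05 in a comparison. The summed level of the pigment epithelium genes was 7.93 to 13.2 CPM in SHAM, 17.1 to 22.4 in MOG, 18.2 to 21.5 in GB20 and 9.19 to 28.1 in GV16. It did not overlap between SHAM and MOG, or between SHAM and GB20, and its part in the members' values was not tested.

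Fold changes also followed gene length across the libraries. Length here is the gene length behind the authors' FPKM. Over 12277 genes of at least 5 CPM, Spearman's correlation between log2 fold change and this length was 0.34 in MOG vs. SHAM. It was -0.37 in GB20 vs. MOG, -0.15 in GV16 vs. MOG and -0.35 in GB20 vs. GV16. Against SHAM it was 0.03 for GB20 and 0.26 for GV16. These values are a description across genes, which are not independent replicates. With each library's trend on gene length taken as an offset in edgeR, the log2 fold change of Fstl4 in GB20 vs. MOG was -0.72 (adjusted p = 0.115) and that of Spp1 was -0.29 (adjusted p = 0.509). That of Cartpt, which was near 0 in the main test, turned from 0.03 to -0.02, and that of Igf1, the member with the longest exons, went from -0.10 to -0.16 in MOG vs. SHAM (adjusted p = 0.473).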

How the data were processed

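RNA-seq of 12 retinal libraries was read from the files the authors deposited. Per the submitters' processing notes and the methods, the authors aligned reads with HISAT2 2.0.5 to mm10 and counted them per gene with FeatureCounts. They deposited raw counts as whole numbers, and FPKM values that the authors computed from the counts and gene lengths. For the annotation release, the strand setting and reads aligned more than once, the sources used here give no detail. Names and coordinates came from GENCODE vM21 on GRCm38, so exon overlaps with opposite-strand models are uncertain for Opn4 (4.39% of exonic bases) and Eomes (2.84%).

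The counts were filtered with filterByExpr, scaled by TMM and tested with the quasi-likelihood test of edgeR 4.0.16 in R 4.3.3, without a replicate block. CPM values use the TMM library sizes, and FPKM values were used for levels between genes. Alternatives used DESeq2 1.42.0, limma 3.58.1, no filter, other scalings, length offsets, a replicate block, log2(FPKM + 1) or log2(FPKM + 0.1), and leaving out each library. The fits were tested on simulated data. A length trend used genes of at least 5 CPM on average. An exact permutation test of 3 against 3 cannot go below p = 0.1 and was not used. The members and lists were chosen with earlier results of these data known. Named were all members, listed genes that were called, and those needed by counts of 5 or fewer. The planned naming of genes most like a called member named none, since no member was called. Of the listed genes, 3 are not reported here and enter no list count.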

Additional observations from a re-analysis of the deposited data

How the results depend on the processing

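Outside GV16 vs. SHAM, no member was called in any comparison under any alternative. In GV16 vs. SHAM, 1 member (Cartpt) was called without the filter and in the replicate block with length offsets (log2 fold change -0.31, edgeR adjusted p = 0.0496), and leaving out 1 library gave 0 to 2 (Cartpt and Spp1, both without SHAM replicate 3). The number of differentially expressed genes depended far more on the setting. In the reported fit it was 245 in MOG vs. SHAM, 44 in GB20 vs. MOG, 30 in GV16 vs. MOG, 1 in GB20 vs. GV16, 63 in GB20 vs. SHAM and 120 in GV16 vs. SHAM. In the same order, no filter gave 539, 140, 73, 8, 282 and 395, and leaving out 1 library gave 91 to 427, 13 to 83, 10 to 38, 0 to 4, 14 to 116 and 23 to 231. DESeq2 over 12 libraries gave 5 in GB20 vs. GV16, 147 in GB20 vs. SHAM and 202 in GV16 vs. SHAM. DESeq2 over the 6 libraries compared gave 119 in GB20 vs. MOG, 57 in GV16 vs. MOG, 4 in GB20 vs. GV16 and 121 in GB20 vs. SHAM, and edgeR over 6 gave 118, 48 and 3 in the first 3 of these and 66 in GV16 vs. SHAM. Limma-voom gave 14 in GV16 vs. MOG and 2 in GB20 vs. GV16, and length offsets gave 127 in GB20 vs. SHAM. With log2(FPKM + 1) the counts were 110, 12, 6, 0, 17 and 33, and with log2(FPKM + 0.1) they were 110, 6, 4, 0, 14 and 33. Of the genes called in GB20 vs. SHAM, 30 of 63 were higher in the reported fit and 11 of 17 with log2(FPKM + 1). The cause of these differences was not tested.

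Whether same-numbered replicates belong together was not settled. The methods describe an experiment repeated 3 times but do not tie the numbers to its runs. Over 18 same-numbered pairs the correlation of deviations ran from -0.0966 to 0.286 with a median of 0.032, and 3 were over 0.1, so the numbers were not taken as pairs. As a hint from the data, every library correlated best with its own number between SHAM and GB20 (0.088 to 0.286) and between SHAM and GV16 (0.032 to 0.087), but not in the other 4 pairs of groups. With the block alone, 0 members were called in edgeR in each comparison. A replicate block called 404 genes in MOG vs. SHAM, 73 in GB20 vs. MOG, 47 in GV16 vs. MOG, 182 in GB20 vs. SHAM and 236 in GV16 vs. SHAM. In that order, the block with length offsets called 480, 95, 67, 241 and 312.

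Of the single log2 fold changes of members, 17 changed sign under some alternative, the largest of them 0.25 in size, and the cause was not tested. Cartpt in GB20 vs. MOG was -0.020 with length offsets and -0.021 with the block and length offsets. Leaving out 1 library gave the following ranges. In MOG vs. SHAM they were -0.016 to 0.076 for Jam2 and -0.121 to 0.051 for Kcng4. In GB20 vs. MOG they were -0.046 to 0.140 for Cartpt, -0.049 to 0.152 for Mmp17 and -0.089 to 0.242 for Eomes. In GV16 vs. MOG they were -0.094 to 0.107 for Mmp17 and -0.146 to 0.032 for Fstl4. In GB20 vs. GV16 they were -0.285 to 0.062 for Eomes, -0.021 to 0.455 for Adcyap1, -0.144 to 0.010 for Kcng4, -0.066 to 0.113 for Igf1 and -0.0058 to 0.142 for Mmp17. In GB20 vs. SHAM they were -0.015 to 0.055 for Igf1, -0.044 to 0.054 for Jam2 and -0.377 to 0.095 for Adcyap1. In GV16 vs. SHAM they were -0.038 to 0.135 for Fstl4 and -0.102 to 0.079 for Igf1.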
